A study of Bos taurus with 12 samples.

Results

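The genes described here are the bovine zinc finger genes that carry a ZNF symbol with a number, measured on arrays of preimplantation embryos. They were taken as every array probe set that names 1 gene whose symbol in the platform annotation is ZNF followed by a number and at most 1 letter. This gave 114 of the 24016 probe sets tested and 87 of the 9155 named genes. Each gene is represented by its probe set of highest mean level over the 12 arrays, a choice that used the level and not any difference between groups. Of the 87 genes, 68 had 1 probe set and 19 had several, up to 4. All 87 gene identifiers were found in the RefSeq gene table, where the symbol was the same and the gene was listed as protein coding. That table holds 301 genes whose symbol has this form, so the array reports on a part of the family.

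ZNF genes encode proteins with C2H2 zinc fingers, short loops folded around a zinc ion that read DNA or RNA sequence. Many carry a KRAB domain, which binds TRIM28 and through it SETDB1 and DNA methyltransferases, and these silence retroelements and imprinted regions in early embryos. Others carry a SCAN or BTB domain, which pairs the proteins with each other, and some serve in splicing, chromosome segregation or ribosome assembly and not in transcription. In cattle the main wave of embryonic genome activation falls at the 8-16-cell stage, when RNA stored in the egg is being replaced by RNA of the embryo.

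All embryos were of Japanese Black cattle and came from fertilization in vitro of oocytes from adult cows (no age is stated) or from prepubertal heifers of 9 to 12 months, with thawed semen. Adult ovaries came from an abattoir and heifer ovaries from farms, where a spay device was used, so donor age and ovary source cannot be told apart. Embryos were picked for normal morphology and taken either with 8 to 16 cells, 70 to 72 h after insemination, or as expanded blastocysts that had not hatched, on day 7. The 4 groups are thus adult 8-16-cell, adult blastocyst, prepubertal 8-16-cell and prepubertal blastocyst, with 3 arrays each (n = 3 throughout), 1 pool of embryos to an array. A pool held 50 embryos at the earlier stage and 10 at the later one, so stage goes with pool size as well as with development, and these cannot be told apart. The labels call the pools biological replicates. Whether they shared animals, semen or culture day is not stated in the labels. The p-values rest on the spread between these pools, estimated mostly over other probe sets and less from a gene's own values. Fewer cells that express a gene and less RNA per cell cannot be told apart in such pools.

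Levels are log2(signal + 16), where signal is the deposited array intensity, so a difference of 1 is a doubling of signal + 16 and the change of a dim gene is understated. A difference is a blastocyst minus 8-16-cell mean, or a prepubertal minus adult mean, with its standard error (SE) from limma. A gene was called where its Benjamini-Hochberg adjusted p, taken over 24016 probe sets, was under 0.05. A signal was taken as above background where it exceeded the highest of 27 bacterial control probe sets on the same array.

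The stage labels were borne out by part of their markers. Of 10 measured genes of the blastocyst epithelium, 6 rose and 1 (ATP1B1, a sodium pump subunit) fell from the 8-16-cell stage to the blastocyst in embryos of adult donors, and 7 rose in those of prepubertal donors. Of 10 oocyte and maternal genes, BMP15, KPNA7 and TECTB fell in both donor groups and ZP4 in prepubertal embryos. The remaining 7 in adult and 6 in prepubertal embryos did not pass, among them OOEP, with 2.60 in prepubertal embryos. The median difference of these 10 genes was -3.28 in adult and -3.79 in prepubertal embryos. Of 3 measured pluripotency genes, 0 were called between stages. One array stood apart: prepubertal 8-16-cell replicate 3 had a background of 1664 (122 to 424 on the remaining 11). For many of the ZNF genes whose values moved when it was left out, but not for all, both values are given. Of 15 measured genes of cumulus and granulosa cells, which surround the oocyte, 6 were at background on every array (AMH, CYP11A1, FSHR, INHA, LHCGR and PTX3). The summed signal of the 15 was 4495 to 17889 and 4086 to 17070 in adult and prepubertal 8-16-cell embryos, and 2973 to 4623 and 1881 to 3152 in the respective blastocysts. Of these 15 genes, 1 was called, STAR, a cholesterol carrier of steroid-making cells, which fell by 5.43 in prepubertal embryos (SE 1.47, limma adjusted p = 0.0203) and was not called without that array (-4.46, limma adjusted p = 0.13). The part of these cells in the stage differences below was not tested. None of the 6 blood and 7 sperm genes measured was called between stages by limma. At an unadjusted p under 0.05 there were 0 of either list in adult embryos, and 2 blood and 0 sperm genes in prepubertal embryos.

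Most ZNF genes gave weak signals at both stages. The number of the 87 above background was 31, 37 and 25 on the adult 8-16-cell arrays and 22, 28 and 26 on the adult blastocyst arrays. It was 26, 28 and 7 on the prepubertal 8-16-cell arrays and 36, 33 and 28 on the prepubertal blastocyst arrays. The array with 7 is replicate 3, the one with the high background. Without it the mean of its group was 27. Group means were 31 ± 6 (SD), 25.3 ± 3.06, 20.3 ± 11.6 and 32.3 ± 4.04 in the same order, and the ranges of the stages overlapped in adult and in prepubertal embryos. Above a fixed signal of 500 the prepubertal order turned, with means of 27.3 at the 8-16-cell stage and 15.7 in blastocysts.

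On each of the 6 blastocyst arrays the share above background was lower for the ZNF genes than for all named genes. In adult blastocysts the shares were 25.3%, 32.2% and 29.9% of ZNF genes, where those of all named genes were 37.0%, 41.1% and 36.4%. In prepubertal blastocysts they were 41.4%, 37.9% and 32.2% against 49.4%, 44.4% and 45.8%. In 8-16-cell embryos the shares lay close together, with the ZNF genes above on 3 arrays and below on 3. They were 35.6%, 42.5% and 28.7% against 39.5%, 39.0% and 31.9% in adult embryos, and 29.9%, 32.2% and 8.05% against 25.9%, 31.0% and 8.57% in prepubertal embryos.

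The median level of the ZNF genes, was also set against that of all named genes on the same array. The difference was -0.06, 0.09 and 0.03 in adult 8-16-cell embryos and -0.05, -0.20 and -0.09 in adult blastocysts, and these ranges overlap. In prepubertal donors it was 0.00, 0.14 and 0.74 at the 8-16-cell stage and -0.49, -0.34 and -0.91 in blastocysts, with all 3 earlier arrays above all 3 later ones, also without replicate 3. Both medians lay under the array's background on all 12 arrays, so these differences compare signals taken here as not above background.

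**Figure D1:**
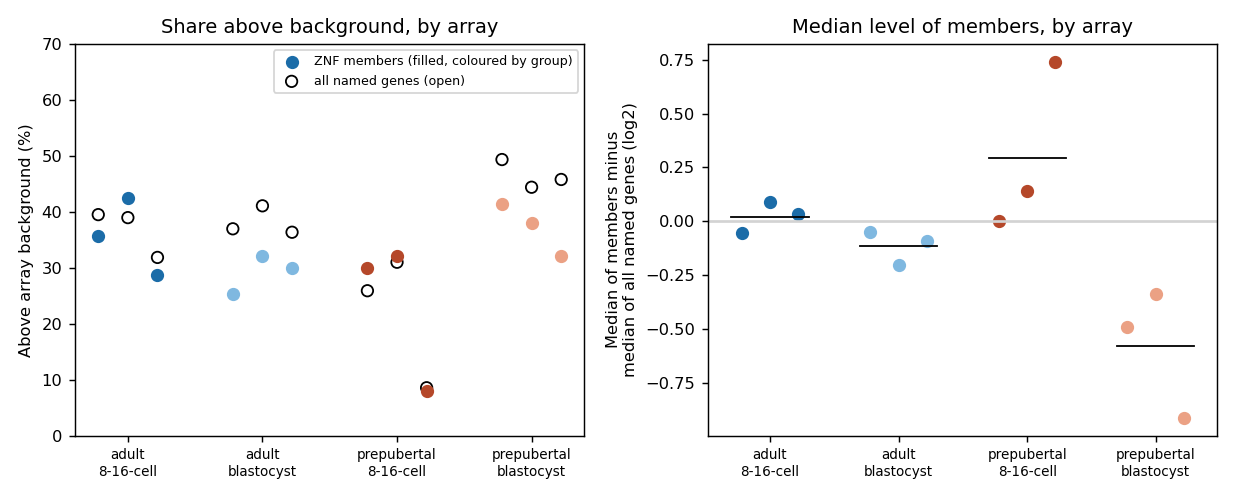
The left panel plots, for each array, the share of ZNF genes (filled) and of all named genes (open) above the array's background, in percent; on each of the 6 blastocyst arrays the filled point lies below the open one. The right panel plots the median log2 level of the 87 ZNF genes minus that of all named genes on the same array, with bars at the group means. It runs from -0.06 to 0.74 in 8-16-cell arrays and from -0.91 to -0.05 in blastocyst arrays, and both medians lie under background on every array.

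Signals above background on all 3 arrays of a group were found in 8-16-cell embryos for 16 ZNF genes of adult donors and 6 of prepubertal donors, and in blastocysts for 9 of each. As shares these were 18.4%, 6.90%, 10.3% and 10.3%, where all named genes had 20.0%, 6.50%, 22.9% and 25.7%. Prepubertal replicate 3 limits the count of 6. In adult embryos 7 genes met this at both stages: ZNF131, ZNF207, ZNF24, ZNF326, ZNF622, ZNF638 and ZNF830. ZNF462 and ZNF609 met it at the 8-16-cell stage and were at background on every adult blastocyst array, and 0 genes did the reverse. In prepubertal embryos ZNF24 and ZNF706 met it at both stages. ZNF24, a SCAN domain gene, was the 1 gene above background on all 12 arrays. Another 10 were above it on none: ZNF177, ZNF35, ZNF385A, ZNF470, ZNF521, ZNF524, ZNF527, ZNF555, ZNF569 and ZNF644.

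In embryos of adult donors, ZNF668, ZNF462 and ZNF304 fell from the 8-16-cell stage to the blastocyst and ZNF593 rose. These 4 calls are 4.60% of the 87, where 2.13% of all probe sets and 3.17% of the named genes were called. By direction, 1 higher (1.15%) stands beside 1.26% of all probe sets and 1.84% of named genes. The 3 lower (3.45%) stand beside 0.87% and 1.33%. In embryos of prepubertal donors, ZNF668 and ZNF131 fell and none of the 87 rose. That is 2.30%, beside 2.34% of all probe sets and 3.95% of named genes, a share near the background. By direction, 0 higher stands beside 1.43% of all probe sets and 2.57% of named genes, and 2 lower beside 0.912% and 1.39%. An unadjusted limma p under 0.05 was found for 15 ZNF genes (17.2%) in adult embryos, beside 11.1% of all probe sets and 15.1% of named genes. In prepubertal embryos it was found for 11 (12.6%), beside 13.8% and 17.3%.

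ZNF668, whose protein has been tied to p53 stability and DNA repair, was called in both donor groups. Its level was 15.22, 13.07 and 14.12 in adult 8-16-cell embryos and 4.32, 7.20 and 11.95 in adult blastocysts. In prepubertal embryos it was 15.42, 13.85 and 16.17, then 10.14, 4.57 and 4.81. All 6 arrays of the earlier stage lay above all 6 of the later one, and 1 blastocyst array of each donor group was still above background. The adult difference was -6.31 (SE 1.38, limma adjusted p = 0.002) and the prepubertal one -8.64 (SE 1.38, limma adjusted p = 3.21e-06). The difference between these 2 changes was -2.33 (SE 1.95, limma adjusted p = 0.955) and did not pass. Without adult blastocyst replicate 1, the adult value was -4.56 and was no longer called (limma adjusted p = 0.0901). With all signals raised to 1664, the highest background, which is that of prepubertal 8-16-cell replicate 3, the adult value was -3.01 and was not called either (limma adjusted p = 0.136). With each signal raised to its own array's background, it was -4.96 and was called (limma adjusted p = 0.00281). The prepubertal call held in all 23 alternative settings, with -8.13 without replicate 3 of the earlier stage. The summed cumulus cell signal given above was higher at the earlier stage without overlap in prepubertal embryos, while its ranges overlapped in adult ones. Its part in the ZNF668 values was not tested.

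ZNF462 encodes a large nuclear protein with a role in the chromatin of embryonic stem cells. Its level was 10.26, 8.99 and 12.15 in adult 8-16-cell embryos and 6.12, 4.69 and 4.57 in adult blastocysts, where all 3 arrays were at background. The groups did not overlap, and the difference was -5.34 (SE 1.42, limma adjusted p = 0.0184). Measured against background, the blastocysts were at least 5.80-fold lower. In prepubertal embryos the levels were 9.01, 9.12 and 6.09, then 7.63, 4.72 and 5.24, which overlap, and the difference of -2.21 did not pass (SE 1.42, limma adjusted p = 0.513). Without prepubertal 8-16-cell replicate 3 the difference was -3.20 and did not pass either (limma adjusted p = 0.362). Of its other probe sets, 1 had an adult difference of -3.66, without overlap (limma adjusted p = 0.0959), and was above background on 2 of the 12 arrays. The remaining differences were 1.33 and -0.60, from probe sets above background on 0 and 1 of the arrays. None of these was called, and probe sets so dim cannot show whether the probe sets of this gene disagree. The mean over all its probe sets, dim ones included, was -2.07 (limma adjusted p = 0.436). The call was also lost with signals raised to each array's own background (-2.54, limma adjusted p = 0.134) or to the highest one, 1664 (-0.48), and without adult 8-16-cell replicate 3 (-4.50), adult blastocyst replicate 2 (-5.12) or adult blastocyst replicate 3 (-5.06).

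ZNF304 is a KRAB zinc finger gene whose product recruits TRIM28, SETDB1 and DNMT1 to the promoters it binds. Its level was 10.71, 12.76 and 12.55 in adult 8-16-cell embryos and 7.39, 5.07 and 8.52 in adult blastocysts, with no overlap. The difference was -5.01 (SE 1.46, limma adjusted p = 0.038). In prepubertal embryos the levels of 8.87, 12.77 and 11.44 overlapped with the later 8.48, 7.02 and 10.69, and the difference of -2.29 did not pass (SE 1.46, limma adjusted p = 0.508). A second probe set gave -3.80 in adult embryos (limma adjusted p = 0.056) and 0.18 in prepubertal ones. The call was lost in 8 of 23 alternative settings, the most among these calls: a pseudocount of 64, quantile normalization, signals raised to the highest background (1664), the mean over probe sets, or leaving out adult 8-16-cell replicate 2 or 3, or adult blastocyst replicate 1 or 2, each ended it, with limma adjusted p from 0.0097 to 1 over all settings. It held with each array's own background as the floor (-3.98, limma adjusted p = 0.025).

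ZNF593 is the counterpart of a yeast factor of large ribosomal subunit export. Its level was 5.85, 8.30 and 5.09 in adult 8-16-cell embryos and 13.52, 10.46 and 13.29 in adult blastocysts. The groups did not overlap, and 1 of the 3 earlier arrays was above background. The difference was 6.01 (SE 1.50, limma adjusted p = 0.00987). In prepubertal embryos it was 4.53, 5.97 and 9.06, then 13.03, 9.74 and 8.07. There the groups overlapped through the earlier replicate 3, the array with the high background, and the difference of 3.76 did not pass (SE 1.50, limma adjusted p = 0.192). Without that array it was 5.03 and did not pass either (limma adjusted p = 0.0715). The adult call held with signals raised to each array's own background (4.60, limma adjusted p = 0.00456). It was lost with signals raised to the highest one, 1664 (1.79), and without adult 8-16-cell replicate 3 (5.35), adult blastocyst replicate 1 (5.47) or adult blastocyst replicate 3 (5.58).

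ZNF131 is a BTB domain transcription factor. Its level was 12.61, 13.06 and 13.91 in prepubertal 8-16-cell embryos and 10.32, 10.47 and 4.81 in prepubertal blastocysts, with no overlap. The difference was -4.66 (SE 1.28, limma adjusted p = 0.0228). In adult embryos the levels of 13.23, 12.48 and 13.75 also lay above all of the later 10.99, 9.86 and 10.66, but the difference of -2.65 did not pass (SE 1.28, limma adjusted p = 0.402). Without the low blastocyst array, replicate 3, the prepubertal value was -2.80 and not called (limma adjusted p = 0.355). The call was lost as well with array weights (-4.15) and without prepubertal 8-16-cell replicate 2 (-4.73) or replicate 3 (-4.30).

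**Figure D2:**
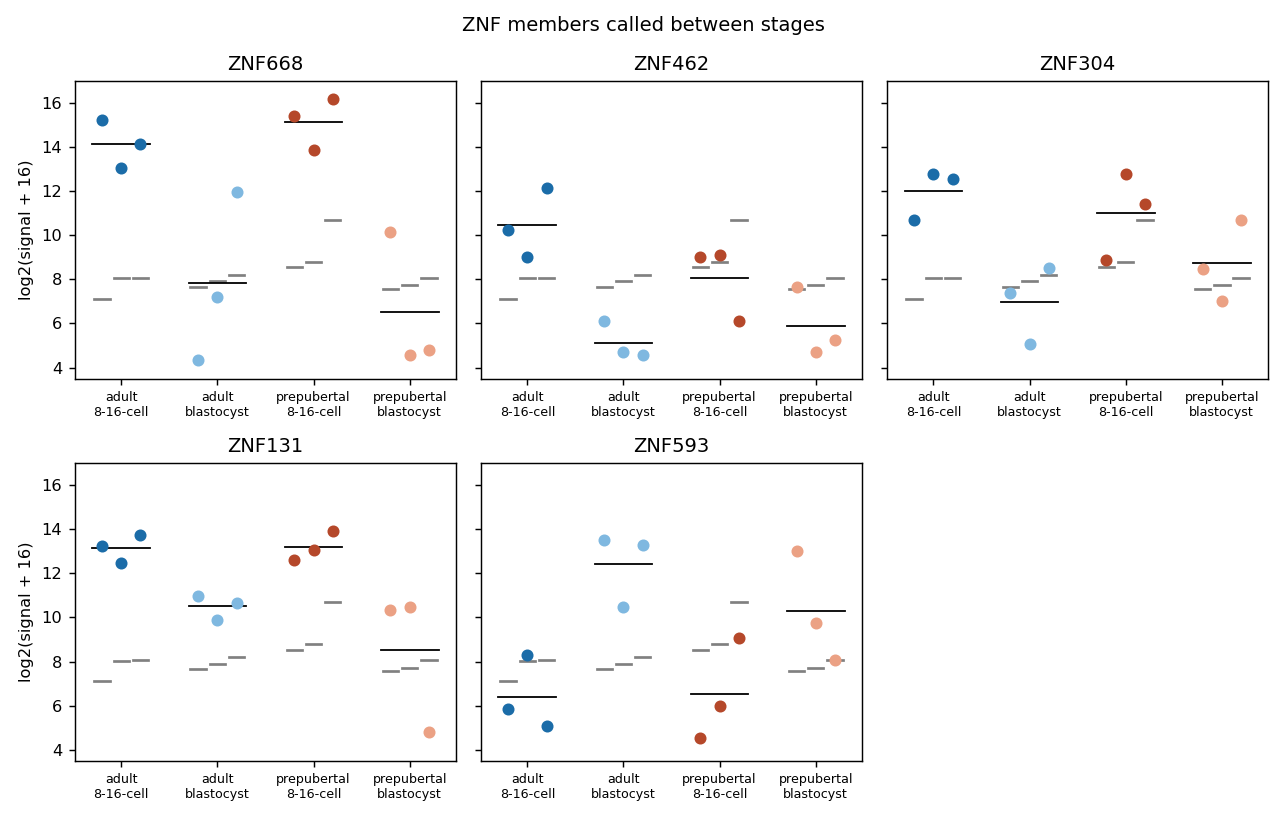
Levels as log2(signal + 16) on each of the 12 arrays for the 5 ZNF genes called between stages, by donor group and stage, with black bars at the group means and short grey lines at each array's background. All 8-16-cell points of ZNF668 (13.07 to 16.17) lie above all of its blastocyst points (4.32 to 11.95), and ZNF593 is the 1 gene whose adult blastocyst points lie above those of the earlier stage.

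The differences between donor groups in these 5 stage changes were not called for any of them. They were 3.12 for ZNF462 (SE 2.01, limma adjusted p = 0.949), 2.72 for ZNF304 (SE 2.06, limma adjusted p = 0.951), -2.25 for ZNF593 (SE 2.12, limma adjusted p = 0.965) and -2.01 for ZNF131 (SE 1.81, limma adjusted p = 0.961). Without prepubertal 8-16-cell replicate 3, that of ZNF593 was -0.98 and that of ZNF462 was 2.13. A call in 1 donor group and not in the other is therefore not shown to be a difference between donors.

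Several ZNF genes that did not pass still kept their 2 stages apart. ZNF397, a SCAN domain gene, measured 12.15, 10.21 and 9.80 and then 9.76, 4.33 and 7.56 in adult embryos. In prepubertal embryos it measured 9.74, 11.52 and 9.17 and then 5.27, 6.37 and 7.51. Neither pair overlapped, and the differences were -3.51 (SE 1.49, limma adjusted p = 0.278) and -3.76 (SE 1.49, limma adjusted p = 0.187). ZNF576 had 11.63, 10.75 and 9.69 and then 7.98, 5.21 and 6.11 in prepubertal embryos, without overlap (difference -4.26, SE 1.47, limma adjusted p = 0.107). ZNF527, a KRAB gene, had a difference of -3.80 there (SE 1.24, limma adjusted p = 0.0775), but all its signals were at background. Among the adult values below, ZNF432, also a KRAB gene, had -3.17 (SE 1.35, limma adjusted p = 0.281), with overlap. ZNF394, a KRAB and SCAN gene, had -3.42 in prepubertal embryos, with overlap (SE 1.24, limma adjusted p = 0.131) and was called without prepubertal 8-16-cell replicate 1 (-5.15, limma adjusted p = 0.0233), but had -2.54 without replicate 3 (limma adjusted p = 0.384).

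On the higher side, none of the values beyond ZNF593 passed. In adult embryos they were 2.92 for ZNF181 (SE 1.16, limma adjusted p = 0.217), 2.85 for ZNF746 (SE 1.30, limma adjusted p = 0.346), 2.69 for ZNF414 (SE 1.23, limma adjusted p = 0.346) and 2.30 for ZNF555 (SE 1.19, limma adjusted p = 0.472). ZNF746 encodes PARIS, a substrate of parkin. In prepubertal embryos they were 3.42 for ZNF677, 2.65 for ZNF384, 1.91 for ZNF48 and 1.85 for ZNF768, with limma adjusted p from 0.248 to 0.595. Without prepubertal 8-16-cell replicate 3 they were 4.38, 4.21, 3.45 and 3.02, none of them called.

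In adult embryos 7 ZNF genes (8.05%) had all 3 blastocyst arrays above all 3 of the earlier stage, and 10 (11.5%) had them below. Of all probe sets 9.55% and 7.62% did, and of named genes 12.1% and 8.92%. In prepubertal embryos 0 were above and 9 (10.3%) below, where 7.35% and 9.24% of all probe sets and 10.8% and 8.91% of named genes were. The lower genes common to both donor groups were ZNF131, ZNF397 and ZNF668.

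Over all 87 genes the median stage difference was below 0 in both donor groups. In adult embryos the median difference was -0.27, where that of all named genes was 0.13, and 50 of the 87 (57.5%) were lower, where 46.4% of named genes were. In prepubertal embryos it was -0.91 against -0.16, with 58 of the 87 (66.7%) lower against 53.4%. Relative to all named genes the medians were thus -0.40 and -0.75. The adult one was -0.66 without adult 8-16-cell replicate 3 and -0.24 without adult blastocyst replicate 3. The prepubertal one was -0.42 without prepubertal 8-16-cell replicate 2 and -0.48 without prepubertal blastocyst replicate 3. With a pseudocount of 64 it was -0.44, and over the 45 genes above background on at least 3 arrays -1.22. With signals raised to the highest background, neither relative median lay below 0. With each array's own background as the floor, only the prepubertal one did, by the small amount given in the closing section. Most of the 87 genes were at background on any given array.

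The adult and prepubertal stage differences rest on separate arrays. Of the 87 genes, 33 were lower in blastocysts of both donor groups and 12 were higher in both, so 45 (51.7%) had the same sign. Another 17 were lower in adult and higher in prepubertal embryos, and 25 the reverse. Across the 87 genes Pearson's r was 0.42 and Spearman's rho 0.22, and across the 9155 named genes 0.53 and 0.42, with 61.7% of the same sign. Genes of 1 array share its noise and are not independent.

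**Figure D3:**
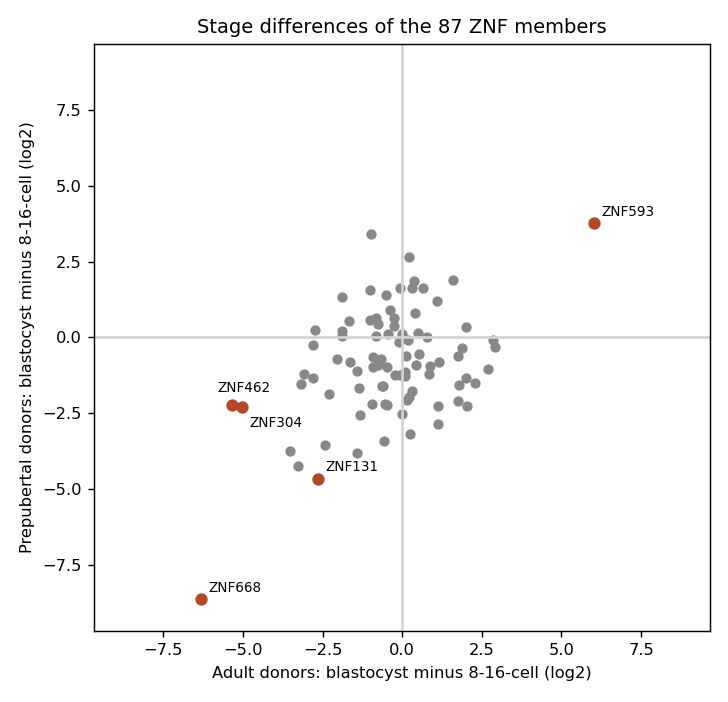
Each point is 1 of the 87 ZNF genes, with its blastocyst minus 8-16-cell difference (log2) in embryos of adult donors on the x axis and of prepubertal donors on the y axis; genes called in either are red and named. ZNF668 (-6.31 and -8.64) lies farthest into the lower left and ZNF593 (6.01 and 3.76) into the upper right.

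By mean level of the probe set over the 12 arrays, 6 genes were picked to describe levels: ZNF207, ZNF830, ZNF326, ZNF131, ZNF668 and ZNF638. Probe sets differ in how well they bind, so this order is not an order of RNA amounts. ZNF207, whose protein BuGZ loads the checkpoint protein BUB3 onto kinetochores, measured 13.09, 12.34 and 9.01 and then 13.19, 11.74 and 10.72 in adult embryos. In prepubertal embryos it measured 14.23, 13.02 and 9.21 and then 13.70, 11.55 and 13.64. The stages overlapped in both donor groups, and the differences were 0.40 and 0.81, the latter -0.66 without prepubertal replicate 3.

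ZNF326, a subunit of the DBIRD complex that links splicing to RNA polymerase II, was similar. It measured 12.91, 10.80 and 12.47 and then 13.47, 12.90 and 11.30 in adult embryos, and 10.87, 13.00 and 9.91 and then 11.80, 10.15 and 12.29 in prepubertal ones. Its stages overlapped too, with differences of 0.50 and 0.15, the latter -0.52 without that replicate.

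ZNF638, also known as NP220, helps silence retroviral DNA together with the HUSH complex. It measured 12.35, 11.89 and 11.71 and then 10.67, 8.77 and 8.26 in adult embryos, without overlap, yet the difference of -2.75 did not pass (SE 1.34, limma adjusted p = 0.41). In prepubertal embryos the levels were 10.72, 11.51 and 9.92 and then 10.64, 12.38 and 9.89. These overlapped fully, with a difference of 0.26, or -0.14 without that replicate.

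ZNF830, a gene needed in the early mouse embryo and involved in pre-mRNA processing, measured 14.11, 12.80 and 14.10 and then 12.32, 12.85 and 10.17 in adult embryos. In prepubertal embryos it measured 14.26, 12.28 and 5.78 and then 12.42, 13.34 and 10.55. The value of 5.78, under background, is on replicate 3, which stood apart, and the stages overlapped in both donor groups. The prepubertal difference was 1.33 with it and -1.17 without it.

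**Figure D4:**
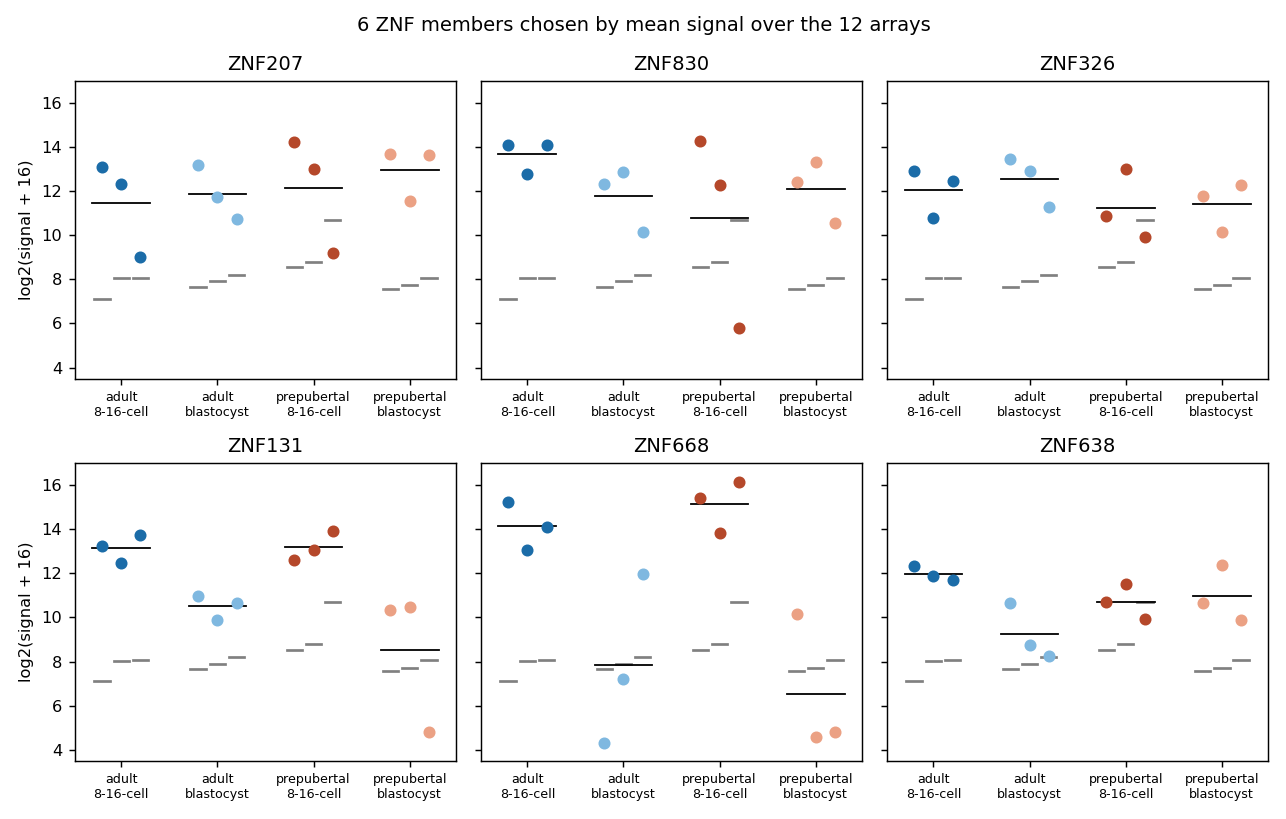
Levels as log2(signal + 16) on each of the 12 arrays for the 6 ZNF genes chosen by the mean signal of their probe sets, by donor group and stage, with black bars at the group means and short grey lines at each array's background. ZNF207 and ZNF326 overlap between stages in both donor groups, ZNF668 in neither, and 1 prepubertal 8-16-cell point of ZNF830 lies at 5.78.

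Between donor groups, none of the 87 genes was called at either stage. In 8-16-cell embryos limma called 0 of 87, where 0.0208% of all probe sets were called. An unadjusted p under 0.05 was found for 6 (6.9%), beside 9.02% of all probe sets and 8.75% of named genes. In blastocysts limma called 0 of 87, where 0% of all probe sets were called, and 4 (4.6%) had an unadjusted p under 0.05, beside 3.68% and 3.9%. For the change of the donor effect from stage to stage these numbers were 0 of 87 beside 0%, and 7 (8.05%) beside 5.44% and 5.69%. The counts of calls were 0 in every alternative setting run but 1. With each signal raised to its own array's background, 43 were called in 8-16-cell embryos. None of the 6 arrays had a signal above background for 30 of these, so that their difference of 1.61 is that of the backgrounds.

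In 8-16-cell embryos the values with the smallest p on the prepubertal side were 2.73 for ZNF592 (SE 1.25, limma adjusted p = 0.512), 2.70 for ZNF644 (SE 1.29, limma adjusted p = 0.525) and 2.47 for ZNF555 (SE 1.19, limma adjusted p = 0.531). ZNF644 encodes a partner of the histone methyltransferases G9a and GLP. All 3 genes were at background on every array of that stage, although their groups did not overlap. On the adult side they were -2.89 for ZNF830, -2.39 for ZNF462 and -1.99 for ZNF567, with limma adjusted p from 0.468 to 0.612. The groups overlapped for ZNF830, whose value was -0.40 without the low replicate 3, and without that array ZNF644 had 1.48 and ZNF462 -1.40. Without overlap, 6 of 87 (6.9%) were higher in prepubertal embryos and 3 (3.45%) lower, where 10% and 2.67% of all probe sets and 8.74% and 3.53% of named genes were.

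In blastocysts the largest difference was that of ZNF181, a KRAB gene. It measured 7.73, 10.21 and 7.88 in adult and 4.25, 4.49 and 5.52 in prepubertal blastocysts, and the groups did not overlap. The prepubertal blastocysts were at least 1.77-fold lower against background, and the difference of -3.85 (SE 1.16) had an unadjusted limma p of 0.00101 and an adjusted p of 1. ZNF414 had -2.91 (SE 1.23) and ZNF746 -2.61 (SE 1.30), also without overlap and not called. On the prepubertal side were ZNF677 with 3.03 (SE 1.48), ZNF205 with 2.68 (SE 1.36) and ZNF174, a SCAN gene, with 2.47 (SE 1.26), none of them called. ZNF174 measured 4.45, 6.59 and 5.07 in adult and 4.28, 7.08 and 12.19 in prepubertal blastocysts, which overlap. It was above background on 1 of the 12 arrays, the one with 12.19. Without overlap, 2 (2.3%) were higher and 4 (4.6%) lower in prepubertal blastocysts, where 6.04% and 3.78% of all probe sets and 6.39% and 3.84% of named genes were.

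The donor effect differed most between stages, by unadjusted p, for ZNF692, ZNF555 and ZNF414. The differences of the effect, blastocyst minus 8-16-cell, were -4.29 (SE 1.90, limma adjusted p = 0.893), -3.79 (SE 1.69, limma adjusted p = 0.895) and -3.72 (SE 1.73, limma adjusted p = 0.913). ZNF692 and ZNF414 were above background on 2 arrays each and ZNF555 on 0, so these values compare mostly signals at background. With signals raised to the highest background, each became 0. The other probe sets, each above background on at most 1 array, gave 1.03, 0.03 and -0.90 for ZNF692. Those of ZNF414 gave -0.39 and -0.13.

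**Figure D5:**
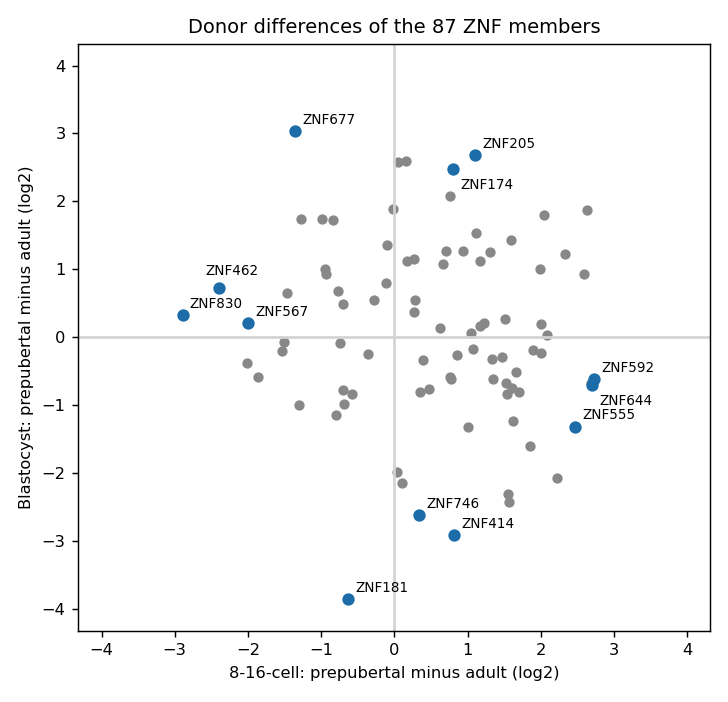
Each point is 1 of the 87 ZNF genes, with its prepubertal minus adult difference (log2) in 8-16-cell embryos on the x axis and in blastocysts on the y axis; the genes named for the donor comparisons are blue, and none was called. The points run from -2.89 (ZNF830) to 2.73 (ZNF592) on the x axis and from -3.85 (ZNF181) to 3.03 (ZNF677) on the y axis.

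RNA of the proteins through which KRAB zinc fingers act was measured for 21 of 33 listed genes. In adult embryos 1 rose, 2 fell and 18 did not pass, and in prepubertal embryos 1 rose, 1 fell and 19 did not pass. Of all probe sets, 1.26% rose and 0.87% fell in adult embryos, and 1.43% rose and 0.912% fell in prepubertal ones. Relative to all named genes the list's median was 0.17 and -0.49. ATF7IP, the partner that keeps SETDB1 in the nucleus, fell in both. It measured 8.03, 13.46 and 10.31 and then 4.69, 5.27 and 6.37 in adult embryos, and 14.39, 12.35 and 13.02 and then 6.71, 5.35 and 5.08 in prepubertal ones, without overlap. The differences were -5.16 (SE 1.48, limma adjusted p = 0.0358), at least 6.37-fold lower, and -7.54 (SE 1.48, limma adjusted p = 0.000264), at least 44.4-fold lower. UHRF1, which guides DNMT1 to newly copied DNA, fell by 7.32 in adult embryos (SE 1.43, limma adjusted p = 0.000315). In prepubertal embryos its value of -4.55 did not pass (limma adjusted p = 0.0624). DNMT3B, a methyltransferase that sets new methylation, rose by 5.28 in adult embryos (SE 1.46, limma adjusted p = 0.0261). Its prepubertal value of 3.04 did not pass (2.11 without 8-16-cell replicate 3). HDAC1, the histone deacetylase, rose by 5.19 in prepubertal embryos (SE 1.46, limma adjusted p = 0.0278). TRIM28 itself, named after its values were seen, had 3.10 in adult (SE 1.37, limma adjusted p = 0.315) and -0.83 in prepubertal embryos (0.17 without 8-16-cell replicate 3), and was not called.

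Among 24 measured genes of related families (ZFP, ZSCAN, ZKSCAN and ZBTB symbols), 1 fell in adult and 2 in prepubertal embryos, and none rose. Of all probe sets, 0.87% fell in adult and 0.912% in prepubertal embryos, and 1.26% and 1.43% rose. So few genes cannot show whether this list departs from those shares. ZSCAN31, a SCAN zinc finger gene, fell in both. It measured 11.03, 11.53 and 13.02 and then 7.11, 7.21 and 5.48 in adult embryos, and 12.73, 13.82 and 14.52 and then 8.32, 8.67 and 7.99 in prepubertal ones. The differences were -5.26 (SE 1.40, limma adjusted p = 0.0189) and -5.36 (SE 1.40, limma adjusted p = 0.0142), and the latter was not called without prepubertal 8-16-cell replicate 3 (-4.95, limma adjusted p = 0.0519). ZBTB9 fell by 6.05 in prepubertal embryos (SE 1.17, limma adjusted p = 0.000208). The list's medians relative to all named genes were -0.90 and -0.96.

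Of 18 other zinc finger transcription factors measured, limma called 0 in adult embryos, with 6 at an unadjusted p under 0.05, and 3 in prepubertal embryos. Of all probe sets, 2.13% were called in adult embryos, with 11.1% at such an unadjusted p, and 2.34% were called in prepubertal embryos. In the latter CTCF, the insulator protein, fell by 5.31 (SE 1.03, limma adjusted p = 0.000191) and KLF4 by 3.28 (SE 0.556, limma adjusted p = 1.18e-05), while KLF5, a trophectoderm and pluripotency factor, rose by 5.07 (SE 1.29, limma adjusted p = 0.0105). Their medians relative to all named genes were -1.24 and -0.79. No gene of these 3 lists was called between donor groups. The differences between donor groups in the stage changes were not called either. They were -2.71 for CTCF, -1.65 for KLF4, 0.81 for KLF5, 3.85 for HDAC1 and -3.98 for ZBTB9. A call in prepubertal embryos alone is thus not shown to be a difference between donors.

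The ZNF genes whose levels followed ZNF668 most closely over the 12 arrays were ZNF131 (Pearson's r 0.77), ZNF75D (0.74) and ZNF527 (0.71). ZNF527 was above background on none of these arrays, so its r relates signals at background to ZNF668. The arrays share stage and donor groups, and these values describe the 12 arrays only. ZNF75D, a KRAB and SCAN gene, measured 12.06, 12.33 and 10.70 and then 8.49, 8.98 and 6.97 in prepubertal embryos, without overlap, and its difference of -3.55 did not pass (SE 1.44, limma adjusted p = 0.206).

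ZNF genes often lie in clusters of near copies. By their order in RefSeq, 36 of the 87 sit next to another ZNF gene, and 10 pairs of neighbours are both measured here. Over the 12 arrays Pearson's r within a pair ran from -0.39 (ZNF329 and ZNF274) to 0.57 (ZNF48 and ZNF771). ZNF543, the neighbour of ZNF304, had stage differences of -0.81 and 0.62 (-0.12 without prepubertal 8-16-cell replicate 3), beside -5.01 and -2.29 for ZNF304. Probe sets of near copies can bind RNA of more than 1 gene. By the suffix of their names, 84 of the 87 probe sets are of the type designed for 1 transcript and 3 of the type shared by transcripts of 1 gene. Whether other family members not on the array bind them was not tested.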

How the data were processed

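RNA of 12 embryo pools was amplified with WT-Ovation Pico and hybridized to the Affymetrix bovine array, per the labels. The deposited values are linear signal intensity per probe set, made by the authors with MAS5, per the submitters' processing notes (version not given in the sources used here). Trimmed array means were 500.2 to 500.3. Of 24128 probe sets, 112 controls were left out, leaving 24016. Of these, 13292 name 1 gene.

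Levels were taken as log2(signal + 16). limma 3.58.1 (R 4.3.3) fitted the 4 group means over the 12 arrays, using lmFit and eBayes with trend, with 8 residual and 195.66 prior degrees of freedom, so the spread of other probe sets outweighs a gene's own. The test is two-sided. The code was tested on simulated data. With 3 arrays a group, their number limits the precision. The bacterial controls set the background, which is too high if those sequences were added to the samples. For a gene at background on all arrays of the dimmer group, "at least" compares with that background.

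The members and lists were chosen with earlier results of these data known. Named were all called members without overlap, filled by smallest p to 5 per direction between stages and 3 between donors, the 3 smallest p for the difference of the donor effect, 6 by level, 3 by likeness, and up to 4 called genes per list. ZNF24, ZNF609 and the other genes named only by background pattern, non-overlap or position, and TRIM28, were named after their values were seen. Alternatives were other pseudocounts, quantile normalization, a filter, a floor at the highest background or at each array's own (the latter added after seeing the data), array weights, a replicate block, the mean over a gene's probe sets, and leaving out each array.

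Deviations of same-numbered arrays from their group means correlated between -0.025 and 0.049, and those of differently numbered arrays between -0.072 and 0.044. Correlations this near 0 do not settle whether replicate numbers pair the arrays.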

Additional observations from a re-analysis of the deposited data

How the results depend on the processing

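The 4 adult calls became 0 with all signals raised to the highest background of the 12 arrays (1664), 3 with each raised to its own array's background, a setting chosen after seeing the data, and 2 with the mean over each gene's probe sets, and 1 to 4 with 1 array left out. The 2 prepubertal calls became 1 with array weights and 1 to 3 with 1 array left out. The donor and interaction counts were 0 to 0. With each array's own background as the floor, prepubertal stage calls became 41 and 8-16-cell donor calls 43, of which 19 and 30 were of genes at background on all arrays compared. Such genes then differ by the backgrounds alone (-1.56 and 1.61), so these counts follow from the setting's construction. The values that reversed did so there: ZNF384 (-0.12), ZNF48 (-0.71) and ZNF768 (-1.28) between prepubertal stages and ZNF567 (1.61) between donors. With the replicate number as a block the counts were 4, 2, 0, 0 and 0, and the block changed no call. Quantile normalization gave 3, 2, 0, 0 and 0. The adult stage median relative to all genes (-0.40) was -0.57 with a pseudocount of 1, -0.28 with 64, -1.06 over genes above background on at least 3 arrays, 0 with either floor, and -0.66 to -0.24 with 1 array left out. The prepubertal one (-0.75) was 0 with the highest background as the floor, -0.12 with each array's own, -0.44 with a pseudocount of 64, -1.22 under the filter and -0.77 to -0.42 with 1 array left out. The donor median was 0.29 in 8-16-cell embryos (0.016 to 0.34 with 1 array left out). In blastocysts it was -0.15 (0.39 under the filter, -0.26 to 0.047 with 1 array left out). Against a fixed signal of 500, chosen after seeing the data, the mean numbers above background were 20.3, 12.3 and 15.7 in adult 8-16-cell embryos, adult blastocysts and prepubertal blastocysts, and 27.3 in prepubertal 8-16-cell embryos, so the prepubertal order of stages turned. Against the median of all probe sets, also chosen later, they were 51, 50.3 and 46, and 54.3 in prepubertal 8-16-cell embryos. Leaving out 1 array gave 28 to 34, 24 to 27, 30.5 to 34.5 and 16.5 to 27 in that order. For the named genes, 749 of 784 alternative values did not reverse and kept their side of the threshold, 24 lost the call, 7 gained it and 4 reversed. Most of these values belong to genes that were not called to begin with, and a value of 0 under a floor counted as kept. All losses fell on the called genes, out of 23 settings each. They were 8 for ZNF304, 6 for ZNF462, 4 each for ZNF593 and ZNF131, and for ZNF668 2 in adult and 0 in prepubertal embryos. Other causes were not tested. A restriction to genes with zinc finger patterns in their protein was not run.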
